A study of Rattus norvegicus with 20 samples.

Results

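Of 39 genes of fatty acid uptake, fatty acid oxidation and the response to peroxisome proliferator-activated receptors (PPARs), 37 had a row among the 32495 named rows of the gene counts, and 35 were abundant enough to be tested. The genes were chosen by symbol for their known function, not by a measured threshold, though with earlier results of these data known. Cd36, a fatty acid transporter of the cell surface, and Eci2, an enoyl-CoA isomerase, are not analysed here. The counts of Echs1 never exceeded 8 in a library and those of Acot1 never exceeded 2, so neither passed the filter on low counts. Echs1 encodes the mitochondrial enoyl-CoA hydratase, which muscle is known to express, and whether the gene models used for counting account for its low count was not tested.

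The counts came from gastrocnemius muscle of female Fischer 344 rats, all of which carried the Ward colorectal carcinoma. In TUMOUR STD (5 libraries) the rats received no chemotherapy and ate a standard diet. In CHEMO STD (7 libraries) they received repeated cycles of CPT-11 (irinotecan), each followed a day later by 5-fluorouracil, on the same diet, whereas in CHEMO FO (8 libraries) the same drugs came with a switch, on the first day of chemotherapy, to an otherwise similar diet that contained fish oil as a source of EPA and DHA. Muscle was taken a week after the last cycle. No group lacked the tumour, none received fish oil without chemotherapy, and the total RNA was made from a small amount of unsorted muscle tissue.

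Long-chain fatty acids reach a muscle fibre from lipoproteins cleaved by lipoprotein lipase and from plasma, are carried by transporters and binding proteins, and are activated to acyl-CoA. Carnitine palmitoyltransferases and a carrier move the acyl groups into the mitochondrion, where beta-oxidation shortens them and passes electrons to the respiratory chain through the electron transfer flavoprotein. PPAR alpha and PPAR delta are nuclear receptors that bind fatty acids, EPA and DHA among them, and activate many genes of this route in muscle. They bind DNA with the retinoid X receptor at a direct repeat of AGGTCA with 1 base between the copies, known as DR1. In fasting muscle, Pdk4, Angptl4 and Ucp3 are well-known genes of this response.

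The promoters of Pdk4, Angptl4 and Ucp3, on which the results turn, are shown beside that of Acadvl, chosen as the gene with the closest match to DR1. RefSeq promoters of the GRCr8 assembly, from 250 bases before to 50 bases after the annotated start, were matched for 33 of the 39 genes, whereas the counts were made on the earlier Rnor 6 assembly. They were searched on both strands for AGGTCA and for the DR1 AGGTCANAGGTCA, in which N is any base and the other 12 bases are fixed. Each promoter is printed 5′ to 3′ on the strand of its gene, with AGGTCA on either strand, and any DR1 match with at most 2 mismatches, in capitals.
Ucp3: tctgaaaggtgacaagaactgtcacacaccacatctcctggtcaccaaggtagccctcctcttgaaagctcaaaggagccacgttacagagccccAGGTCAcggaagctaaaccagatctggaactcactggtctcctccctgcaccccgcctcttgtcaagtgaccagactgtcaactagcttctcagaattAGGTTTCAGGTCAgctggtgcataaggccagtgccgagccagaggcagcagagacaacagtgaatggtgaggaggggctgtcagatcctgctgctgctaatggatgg
Acadvl: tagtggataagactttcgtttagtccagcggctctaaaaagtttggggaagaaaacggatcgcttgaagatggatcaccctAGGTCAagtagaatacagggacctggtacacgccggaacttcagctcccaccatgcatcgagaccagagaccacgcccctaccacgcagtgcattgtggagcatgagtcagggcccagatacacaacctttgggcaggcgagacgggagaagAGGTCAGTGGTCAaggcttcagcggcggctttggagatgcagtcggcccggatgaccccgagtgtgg
Pdk4: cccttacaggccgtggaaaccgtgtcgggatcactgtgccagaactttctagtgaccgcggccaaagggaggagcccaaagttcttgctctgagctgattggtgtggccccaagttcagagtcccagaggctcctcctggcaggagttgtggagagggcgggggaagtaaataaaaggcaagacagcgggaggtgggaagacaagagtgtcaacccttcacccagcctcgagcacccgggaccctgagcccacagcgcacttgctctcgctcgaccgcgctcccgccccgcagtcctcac
Angptl4: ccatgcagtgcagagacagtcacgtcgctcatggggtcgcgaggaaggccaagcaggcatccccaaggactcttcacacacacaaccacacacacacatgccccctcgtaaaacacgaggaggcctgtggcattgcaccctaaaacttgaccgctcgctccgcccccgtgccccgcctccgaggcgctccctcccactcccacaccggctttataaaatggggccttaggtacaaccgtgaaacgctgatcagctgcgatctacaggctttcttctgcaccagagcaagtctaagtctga
The window of Ucp3, a mitochondrial uncoupling protein of muscle, lies on the plus strand at chr1:164227660-164227959 and holds a DR1 match with 2 mismatches, AGGTTTCAGGTCA, that begins 57 bases before the start. That of Acadvl, the very long-chain acyl-CoA dehydrogenase, lies on the minus strand at chr10:55236656-55236955 and holds AGGTCAGTGGTCA, with 1 mismatch, 17 bases before the start. The windows of Pdk4 (chr4:34568280-34568579, minus strand), Angptl4 (chr7:15258632-15258931, minus strand) and Cpt1a (chr1:209995910-209996209, plus strand) held neither AGGTCA nor a DR1 match, which says only that these letters were not in these windows. AGGTCA was found in 9 of the 33 genes (27.3%) and in 16.2% of all 33469 promoters. A DR1 with at most 2 mismatches was found in 6 (18.2%), namely Slc25a20, Acacb, Acadvl, Echs1, Etfa and Ucp3, and in 3.77% of all promoters. No exact DR1 was found in the 33 genes, and 0.0538% of all promoters held one.

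The named rows held 3020821 to 10857477 counts per library, with a median of 6200550 in TUMOUR STD, 4944773 in CHEMO STD and 4634605.5 in CHEMO FO. CHEMO STD replicates 1 and 2 were far more alike than other libraries of like group. Their chi-square per gene was 2.23, where counting noise alone gives about 1, whereas the 58 remaining pairs of libraries of like group gave 13.7 to 255. They were counted as 1 sample, which left n = 5, 6 and 8. The tissue was skeletal muscle by its markers in every sample: Myh4, the myosin heavy chain of fast fibres, lay at 61779 CPM (counts scaled to a common library size) or more and Ckm, muscle creatine kinase, at 16534 CPM or more. CHEMO FO replicate 18 stood apart from its group. Of all genes tested, 17.7% lay more than 1 log2 unit from the median of its group mates, against 1.84% to 9.89% in the other samples, and 9 of the 35 tested genes of the pathway (25.7%) did so. Its 8 macrophage markers summed to 741 CPM, against 192 to 304 CPM in the rest of CHEMO FO. The markers did not all follow the sum. Cd163 (275 CPM) and Mrc1 (168 CPM) were its largest parts, and C1qa, C1qb and C1qc were also the highest of the group. Cd68 (4.94 CPM) was close to the next sample (4.83 CPM), Csf1r (54.8 CPM) lay within the group, and Adgre1 (7.60 CPM) was the lowest of it. The 6 measured of 7 skeletal muscle markers summed to 121977 CPM, the lowest of all samples. CHEMO FO replicate 17 was ordinary over all genes (2.67%) and in its macrophage markers (234 CPM), and differed by more than 1 log2 unit in 4 pathway genes, as did CHEMO FO replicate 19 and TUMOUR STD replicate 11, but among its 4 were the extreme values of Angptl4, Ucp3 and Pdk4 described below. The main results that rest on these samples are given with and without them.

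**Figure D1:**
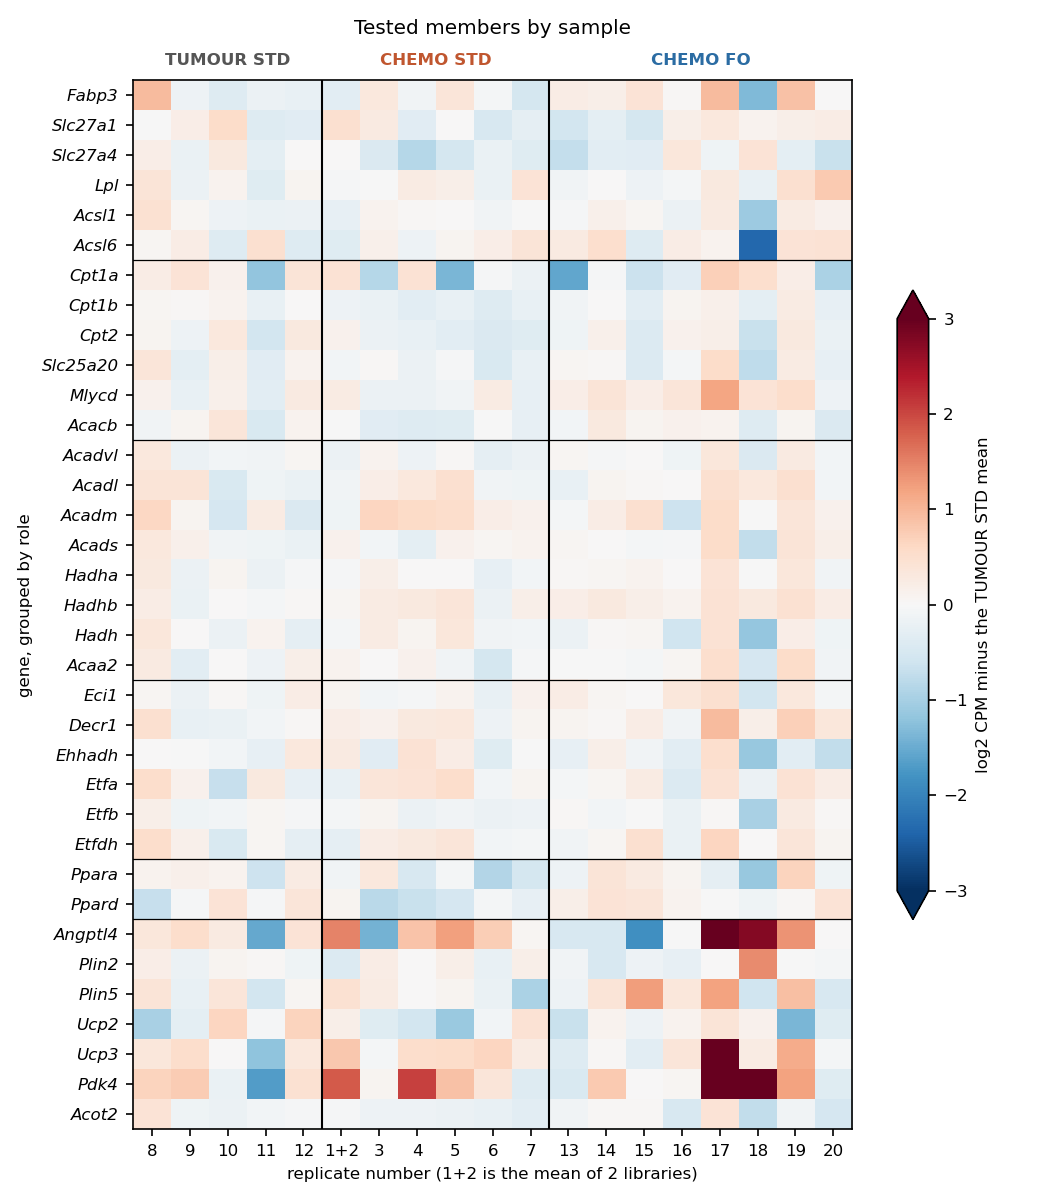
Level of each of the 35 tested genes in each of the 19 samples, as log2 CPM minus the mean of TUMOUR STD, with genes in rows by role and samples in columns by group. Most rows are pale, and the darkest cells are Angptl4, Ucp3 and Pdk4 in CHEMO FO replicate 17, Angptl4 and Pdk4 in replicate 18, and Acsl6 in replicate 18.

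The diet effect was taken first, since EPA and DHA are themselves PPAR ligands. CHEMO FO was compared with CHEMO STD by edgeR's quasi-likelihood test, and calls took the thresholds that the study used, a change of 1.5-fold or more together with an unadjusted p below 0.05. None of the 35 tested genes was called, against a background of 1.66% of all 11716 genes tested. At an unadjusted p below 0.05 alone there were 2, Ppard and Mlycd, both higher with fish oil (background 4.51%), and DESeq2 called none and placed 3 below 0.05. Of all genes tested, 2.45% were higher at that p. No gene passed an adjusted p of 0.05, in the pathway or among all genes. The log2 fold change (log2 FC) was positive for 29 of the 35 and negative for 6, with a median of 0.12 against -0.01 over all genes, of which 48.7% were positive. Without CHEMO FO replicates 17 and 18 it was positive for 22 and negative for 13, with a median of 0.08. Over all genes in that fit, 46.8% were positive and the median was -0.02. Without replicate 17 alone the median of the pathway was 0.06. No pathway gene had groups that did not overlap (background 0.0683%). The samples are bulk tissue, in which fewer cells of a type and less RNA per cell cannot be told apart.

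Both PPAR receptors had a positive log2 FC with fish oil, and that of Ppard was below an unadjusted p of 0.05 while that of Ppara was not. Ppard, which encodes PPAR delta, the main PPAR of muscle, lay at 9.83, 13.6 and 18.7 CPM (lowest, median, highest) in CHEMO STD and at 15.9, 19.5 and 23.6 CPM in CHEMO FO. In TUMOUR STD its 5 values were 10.7, 16.99, 23.5, 17.2 and 22.6 CPM. The fish oil samples thus covered the upper part of the range, and the CHEMO STD samples the lower part, with an overlap between 15.9 and 18.7 CPM. The log2 FC for the diet effect was 0.50 (SE 0.18, 95% confidence interval 0.13 to 0.87), with an adjusted p = 0.974 by edgeR and Benjamini-Hochberg adjustment over all genes. It stayed between 0.42 and 0.56, with an unadjusted p below 0.05, when any single library was left out, was 0.58 without CHEMO FO replicates 17 and 18, and passed the 1.5-fold threshold, at 0.62, among the settings tried, only without CHEMO STD replicates 1 and 2.

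Ppara, which encodes PPAR alpha, was measured at 10.7, 10.9, 10.6, 6.34 and 11.8 CPM in TUMOUR STD. It ranged from 5.23 to 12.3 CPM in CHEMO STD (median 8.12) and from 4.30 to 15.9 CPM in CHEMO FO (median 9.69), so that the fish oil group enclosed the other. The log2 FC was 0.27 (SE 0.24, 95% confidence interval -0.23 to 0.78). The lowest value of the fish oil group belonged to replicate 18. Without replicates 17 and 18 the log2 FC of Ppara was 0.47, with an unadjusted p below 0.05. Of all genes in that fit, 6.25% were below that p.

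The PPAR-responsive regulators and lipid storage genes gave the largest positive log2 FC of the pathway, and their sign depended on 2 samples. Of 7 tested genes, 7 were positive, with a median log2 FC of 0.49, but without CHEMO FO replicates 17 and 18 only 1 of the 7, Plin5, was positive and the median was -0.19. None of the 7 was below an unadjusted p of 0.05 in either case. Both samples were left out after the data had been seen, because they held the highest Pdk4. The CHEMO STD samples with high Pdk4, replicate 4 (333 CPM) and replicates 1 and 2 (284 CPM), were kept. A lower log2 FC of Pdk4, and of genes that vary with it, thus follows in part from that choice.

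Pdk4, the kinase that shuts down pyruvate dehydrogenase when muscle turns to fat, lay at 127, 135, 69.3, 24.5 and 110 CPM in TUMOUR STD. In CHEMO STD it ranged from 60.9 to 333 CPM (median 125) and in CHEMO FO from 58.3 to 1124 CPM (median 111). The medians of the 3 groups thus lay close together, while replicates 17 and 18 of CHEMO FO, at 1051 and 1124 CPM, were far above the next of their group, replicate 19 at 184 CPM. The log2 FC for the diet was 1.03 (SE 0.66, 95% confidence interval -0.33 to 2.39), and -0.76 without those 2 samples.

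Angptl4, a secreted inhibitor of lipoprotein lipase, was measured at 8.04, 9.14, 7.63, 1.95 and 8.42 CPM in TUMOUR STD. It ranged from 2.15 to 18.1 CPM in CHEMO STD (median 11.1) and from 1.52 to 76.9 CPM in CHEMO FO (median 6.28). The 2 highest values were again those of CHEMO FO replicates 17 (76.9 CPM) and 18 (44.0 CPM), followed within that group by replicate 19 (16.4 CPM). The log2 FC was 0.91 (SE 0.62, 95% confidence interval -0.38 to 2.20) and -0.75 without replicates 17 and 18.

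Ucp3 had values of 90.5, 104.1, 72.2, 31.0 and 88.9 CPM in TUMOUR STD. The range was 68.8 to 126 CPM in CHEMO STD (median 104.5) and 54.8 to 627 CPM in CHEMO FO (median 78.8). Here replicate 17 alone was extreme, and replicate 18, at 84.3 CPM, lay among the others in spite of its high Pdk4 and Angptl4. The log2 FC of 0.60 (SE 0.46, 95% confidence interval -0.34 to 1.54) became -0.26 without replicate 17. DESeq2, which replaced the count of replicate 17 as outlying, gave -0.25.

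Plin2, a coat protein of lipid droplets, was steady at 41.2, 31.7, 37.9, 37.0 and 32.6 CPM in TUMOUR STD and at 26.8 to 42.1 CPM in CHEMO STD (median 38.6). In CHEMO FO, 7 of the 8 samples lay between 25.5 and 36.5 CPM and replicate 18 at 95.8 CPM. The log2 FC of Plin2 was 0.18 (SE 0.23) with replicate 18 and -0.14 without it. Plin5, which tethers lipid droplets to mitochondria, averaged 13.6 ± 6.71 CPM (SD, n = 8) in CHEMO FO and 9.50 ± 2.88 CPM (SD, n = 6) in CHEMO STD. Its log2 FC of 0.49 (SE 0.29) was nearly the same, 0.47, without replicates 17 and 18, and Plin5 was called when CHEMO FO replicate 18 (0.61) or 20 (0.60) alone was left out. Ucp2 (log2 FC 0.005) and the acyl-CoA thioesterase Acot2 (0.03) differed least.

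**Figure D2:**
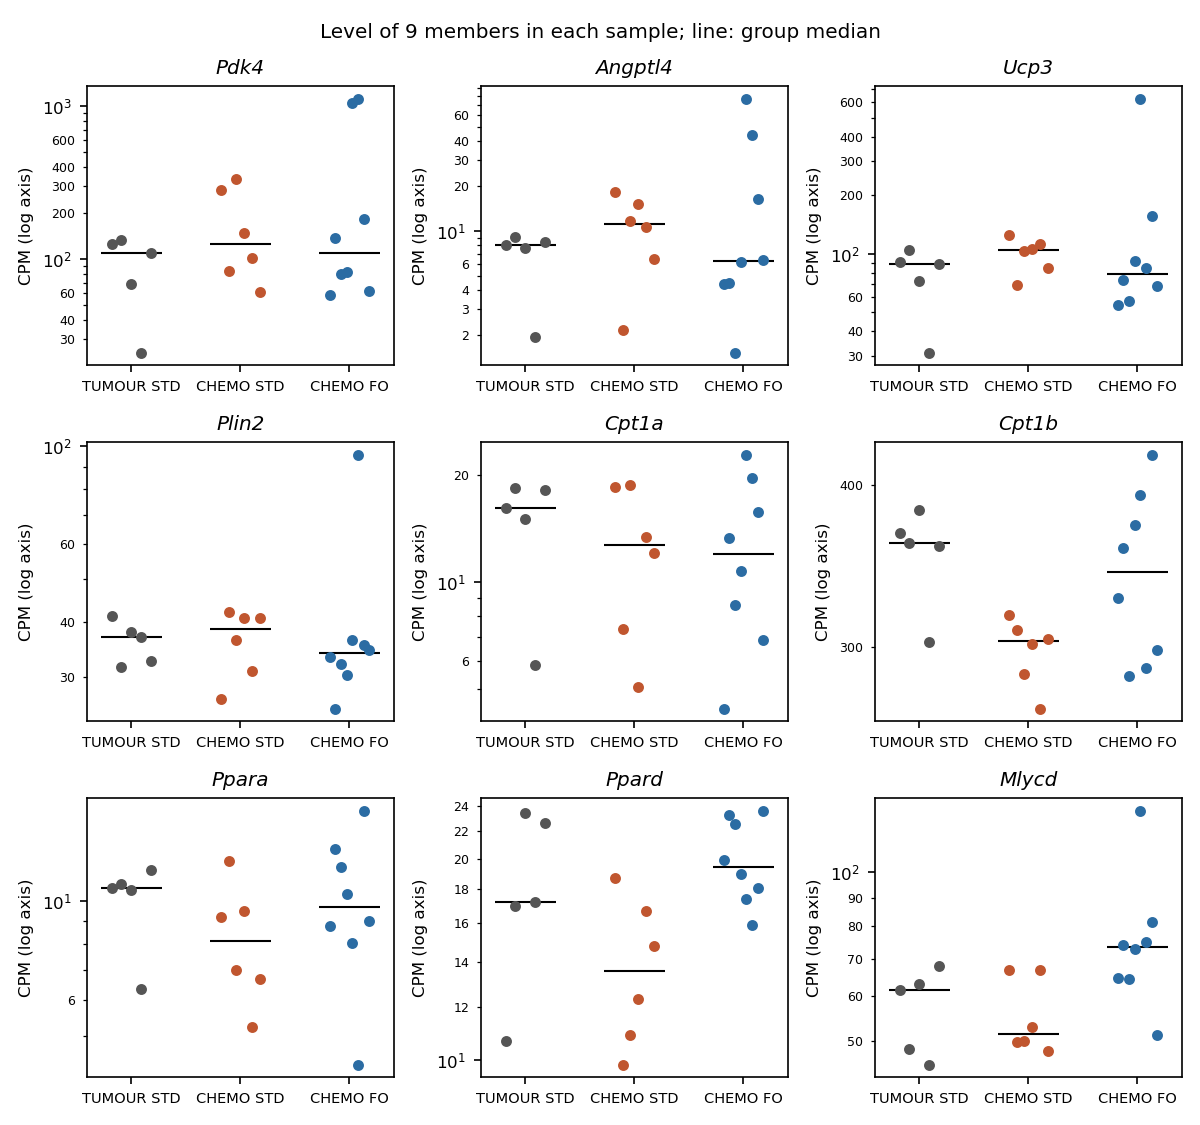
CPM of 9 genes in each sample on log axes, by group, with a line at the group median. CHEMO FO replicates 17 and 18 are the 2 highest points for Pdk4 (1051 and 1124 CPM) and Angptl4 (76.9 and 44.0 CPM), and for Ppard the 8 CHEMO FO samples lie at 15.9 CPM or above.

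In the carnitine shuttle and its control, 5 of 6 tested genes had a positive log2 FC, with a median of 0.18. Mlycd, malonyl-CoA decarboxylase, removes the malonyl-CoA that inhibits the shuttle. It lay at 47.9, 51.4 and 66.9 CPM (lowest, median, highest) in CHEMO STD and at 51.2, 73.4 and 129 CPM in CHEMO FO, against 61.7, 48.4, 63.2, 45.3 and 68.0 CPM in TUMOUR STD. Of the 8 fish oil samples, 5 exceeded every CHEMO STD sample, and replicate 17 was the highest. The log2 FC was 0.45 (SE 0.17, 95% confidence interval 0.11 to 0.80, adjusted p = 0.974), under the 1.5-fold threshold, and 0.31 without replicate 17, where the unadjusted p stayed below 0.05, or 0.28 without replicates 17 and 18, where it did not.

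Cpt1b, the muscle carnitine palmitoyltransferase that admits acyl groups to the mitochondrion, was measured at 367, 361, 383, 303 and 359 CPM in TUMOUR STD. It spanned 269 to 318 CPM in CHEMO STD (median 303) and 285 to 422 CPM in CHEMO FO (median 343). The CHEMO STD samples lay close together at the low end, and the fish oil samples spread from there to above the tumour controls. The log2 FC for the diet was 0.20 (SE 0.11, 95% confidence interval -0.02 to 0.42). Its unadjusted p was above 0.05 by edgeR and below 0.05 by DESeq2, and also below 0.05 by edgeR without CHEMO FO replicate 18 (log2 FC 0.24).

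Cpt1a, the liver-type isoform, was much more variable, at 16.1, 18.3, 15.0, 5.85 and 18.1 CPM in TUMOUR STD, 5.06 to 18.6 CPM in CHEMO STD (median 12.7) and 4.40 to 22.7 CPM in CHEMO FO (median 12.0). The 3 ranges nearly coincided, and the log2 FC was -0.01 (SE 0.33, 95% confidence interval -0.68 to 0.67). Acacb, the acetyl-CoA carboxylase that makes malonyl-CoA for this control, had a log2 FC of 0.21 (SE 0.14). Cpt2 (0.16) and the carnitine-acylcarnitine carrier Slc25a20 (0.12) were also positive.

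Of the 6 tested genes of uptake and activation, 5 were positive with a median log2 FC of 0.04. Fabp3, the fatty acid binding protein of muscle, averaged 377 ± 150 CPM (SD, n = 8) in CHEMO FO and 302 ± 72.8 CPM (SD, n = 6) in CHEMO STD, a log2 FC of 0.32 (SE 0.26). The transporters Slc27a1 and Slc27a4, lipoprotein lipase (Lpl) and the acyl-CoA synthetases Acsl1 and Acsl6 lay between -0.01 and 0.20. CHEMO FO replicate 18 was the lowest of its group in Fabp3 (122 CPM, next 309), Acsl1 (198 CPM, next 377) and Acsl6 (31.3 CPM, next 122).

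Mitochondrial beta-oxidation differed little between the diets. Its 8 tested genes had log2 FC between -0.19 and 0.14 with a median of 0.08, and 6 were positive, among them both subunits of the trifunctional protein, Hadha (0.14) and Hadhb (0.10). Acadm, the medium-chain acyl-CoA dehydrogenase, and Hadh, the short-chain hydroxyacyl-CoA dehydrogenase, were negative at -0.18 and -0.19. The 6 tested auxiliary and electron transfer genes lay between -0.29 and 0.18, with the peroxisomal bifunctional enzyme Ehhadh lowest (-0.29, SE 0.21) and the dienoyl-CoA reductase Decr1 highest. For 22 of the 35 tested genes (62.9%), the 95% confidence interval of the diet effect lay wholly within a 1.5-fold change in either direction (0.58 on the log2 scale), against 55.6% of all genes. Acadvl, whose promoter is shown above, averaged 344 ± 55.9 CPM (SD, n = 8) with fish oil and 317 ± 31.2 CPM (SD, n = 6) without, a log2 FC of 0.11 (SE 0.12). The genes with intervals beyond that size include Pdk4, Angptl4, Ucp3, Plin5 and Cpt1a, for which a 1.5-fold change could not be set apart from none at this spread.

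The chemotherapy effect, CHEMO STD against TUMOUR STD, compared rats with and without the drugs on the standard diet. The paper reports that food intake was significantly reduced after chemotherapy on both diets. Drugs and lower intake therefore cannot be told apart in this comparison. None of the 35 tested genes was called by edgeR, against a background of 2.38%, and 1, Cpt1b, was below an unadjusted p of 0.05 (background 6.5%, or 3.83% lower). DESeq2 gave the same counts, 0 and 1. The log2 FC was positive for 13 genes and negative for 22, with a median of -0.04 against -0.002 over all genes, of which 49.7% were positive. No gene had groups that did not overlap (background 0.478%), and no adjusted p was under 0.05, here or among all genes.

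In the carnitine shuttle and its control, 6 of 6 tested genes had a negative log2 FC, with a median of -0.21, and both PPAR receptors were negative as well. Cpt1b had 4 of its 5 TUMOUR STD values between 359 and 383 CPM and all 6 CHEMO STD values at 318 CPM or below, and the groups overlapped only through TUMOUR STD replicate 11 at 303 CPM. Its means were 355 ± 30.4 CPM (SD, n = 5) and 298 ± 17.7 CPM (SD, n = 6), a log2 FC of -0.26 (SE 0.12, 95% confidence interval -0.51 to -0.01, adjusted p = 0.719). Without TUMOUR STD replicate 10 it was -0.22 and its unadjusted p was above 0.05. Cpt2 (-0.26, SE 0.18), Acacb (-0.25, SE 0.15), Cpt1a (-0.18), Slc25a20 (-0.18) and Mlycd (-0.05) did not reach an unadjusted p of 0.05. Cpt1a ranged from -0.38 without TUMOUR STD replicate 11 to -0.04 without CHEMO STD replicate 5, and Mlycd turned to 0.03 without TUMOUR STD replicate 12.

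Both PPAR receptors had a negative log2 FC after chemotherapy that did not pass the test. For Ppard the means were 18.2 ± 5.16 CPM (SD, n = 5) in TUMOUR STD and 13.9 ± 3.46 CPM (SD, n = 6) in CHEMO STD, and the log2 FC was -0.38 (SE 0.20). Its unadjusted p was below 0.05 without CHEMO STD replicates 1 and 2 (-0.49) and without TUMOUR STD replicate 8 (-0.51), and the log2 FC was -0.26 without TUMOUR STD replicate 10. Ppara had a log2 FC of -0.29 (SE 0.26). The CHEMO STD samples enter both this comparison and the diet effect, with opposite sign, so that the lower Ppard and Cpt1b here and the higher values under the diet effect are not independent.

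Pdk4 was the most positive gene of the pathway after chemotherapy, at a log2 FC of 0.86 (SE 0.73, 95% confidence interval -0.65 to 2.38), followed by Angptl4 (0.63, SE 0.72) and Ucp3 (0.37, SE 0.51). Pdk4 was 0.55 without CHEMO STD replicate 4, and Angptl4 was 0.40 and Ucp3 0.17 without TUMOUR STD replicate 11. In CHEMO STD, Pdk4 was highest in replicate 4 (333 CPM) and in replicates 1 and 2 (284 CPM as their mean), and the other 4 samples lay within or near the range of the tumour controls. The beta-oxidation genes were split, with 4 positive and 4 negative and log2 FC between -0.12 and 0.29. In uptake and activation, the transporter Slc27a4 had the most negative value (-0.40, SE 0.22). The interval lay within a 1.5-fold change for 22 of 35 genes (62.9%), against 42.9% of all genes.

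Chemotherapy with fish oil, CHEMO FO against TUMOUR STD, is a comparison that the study's design allows. It changes drugs, diet and, by the paper's account, food intake together. Pdk4 and Angptl4 were called as higher, 2 of the 35 tested genes, against a background of 3.6% called in either direction and 1.09% called as higher. DESeq2 also called 2. At an unadjusted p below 0.05 there were 4 by either tool, Pdk4, Angptl4, Mlycd and Hadhb, all higher (background 9.04%, or 3.72% higher). The log2 FC was positive for 20 genes and negative for 15, with a median of 0.06 against 0.002 over all genes, of which 50.4% were positive. No gene had groups that did not overlap (background 0.307%) and no adjusted p was under 0.05 in edgeR.

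Pdk4 rose with a log2 FC of 1.89 (SE 0.73, 95% confidence interval 0.38 to 3.41, adjusted p = 0.503). Its means were 93.1 ± 45.9 CPM (SD, n = 5) in TUMOUR STD and 348 ± 459 CPM (SD, n = 8) in CHEMO FO, but the medians, 110 and 111 CPM, were alike. Pdk4 kept its call in each fit that left out a single library, with a log2 FC of 1.42 without replicate 17 and 1.36 without replicate 18. With replicates 17 and 18 both left out, the log2 FC was 0.11. Angptl4 rose by 1.54 on the log2 scale (SE 0.68, 95% confidence interval 0.13 to 2.96, adjusted p = 0.529), from 7.04 ± 2.90 CPM (SD, n = 5) to 20.02 ± 26.8 CPM (SD, n = 8). Its call was lost without CHEMO FO replicate 17 (0.83), without replicate 18 (1.30) and without TUMOUR STD replicate 11 (1.31), and the log2 FC was -0.12 without both fish oil samples. Beside these values, replicate 18 held the highest macrophage marker sum, with Cd163 and Mrc1 as its largest parts, and the lowest muscle marker sum. Replicate 17 was unremarkable in both sums, and the part of either in the result was not tested.

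Hadhb, the beta subunit of the trifunctional protein, was measured at 659, 490, 573, 545 and 576 CPM in TUMOUR STD and at 606 to 778 CPM in CHEMO FO (median 682). All 8 fish oil samples lay at 606 CPM or above, as did 1 of the 5 tumour controls. The log2 FC was 0.26 (SE 0.11, 95% confidence interval 0.03 to 0.50, adjusted p = 0.524), under the 1.5-fold threshold. It lay between 0.21 and 0.33 with each library left out, and its unadjusted p did not stay below 0.05 throughout. Without CHEMO FO replicates 17 and 18 it was 0.23, with an unadjusted p above 0.05. Mlycd had a log2 FC of 0.41 (SE 0.17, adjusted p = 0.524), and 0.27 without CHEMO FO replicate 17 or 0.33 without TUMOUR STD replicate 11, with an unadjusted p above 0.05 in both cases. Ucp3 reached 0.96 (SE 0.49) and was called without any 1 of CHEMO FO replicates 13, 14, 15, 18 and 20, but had 0.11 without replicate 17, and 0.13 by DESeq2, which replaced that count. Plin5 (0.46, SE 0.31) and Decr1 (0.32, SE 0.16) were also positive. Ppard (0.11), Ppara (-0.02) and Cpt1b (-0.06) were near zero, with CHEMO FO means of 19.96, 10.2 and 343 CPM against 18.2, 10.1 and 355 CPM in TUMOUR STD. The interval lay within a 1.5-fold change for 22 of 35 genes (62.9%), against 47.7% of all genes.

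**Figure D3:**
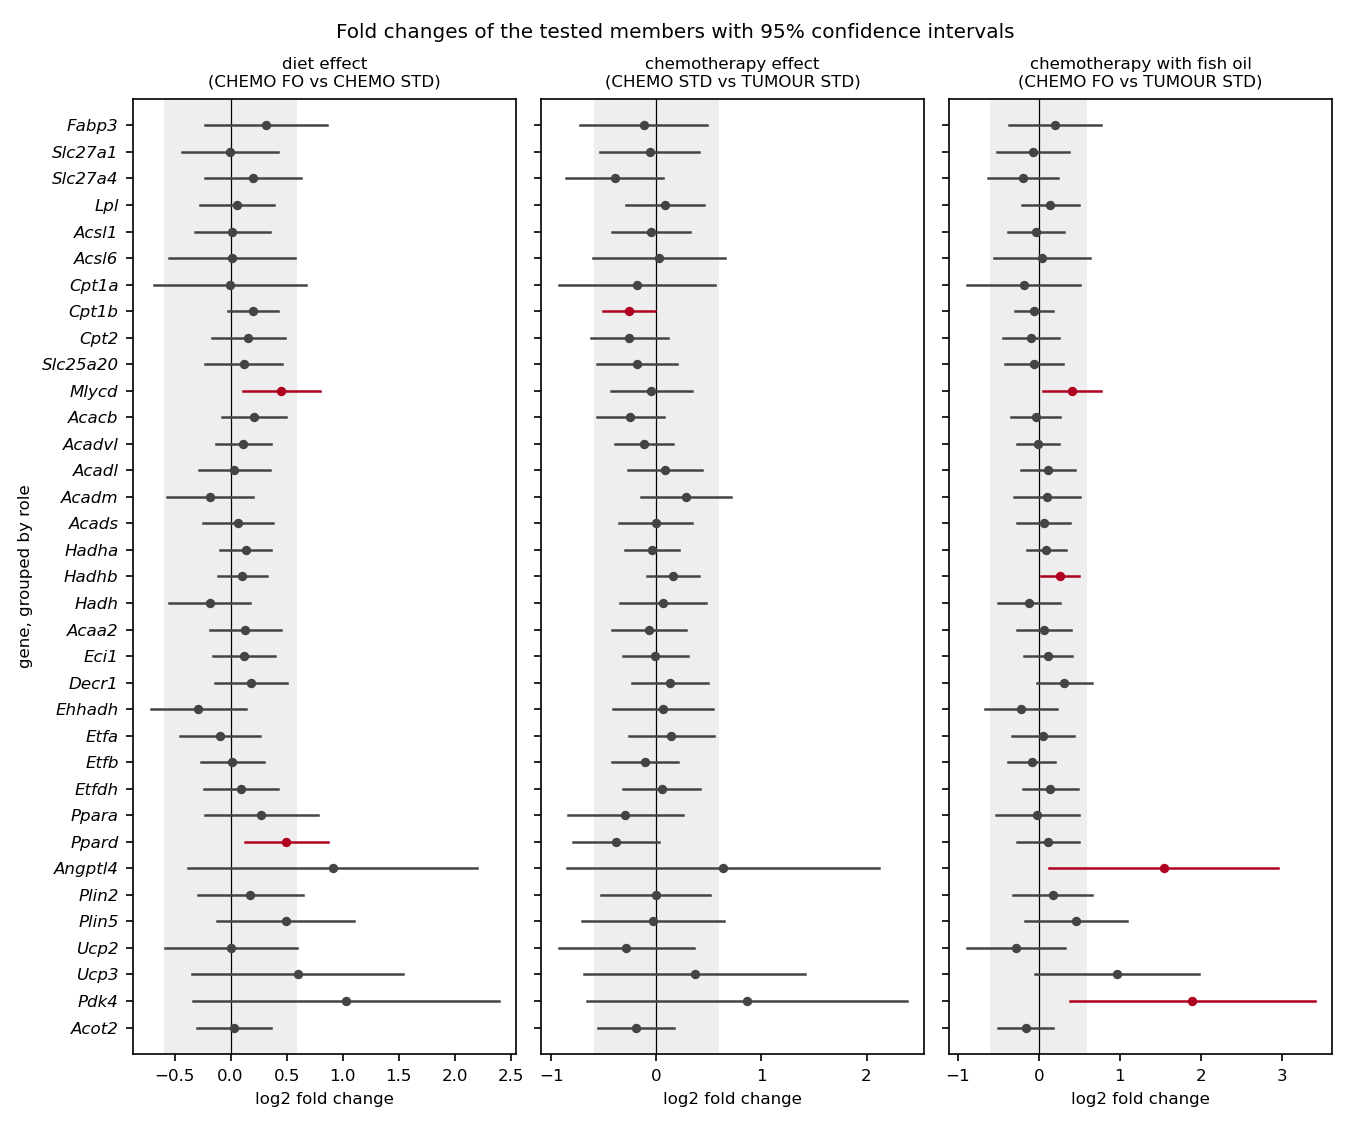
The log2 fold change of the 35 tested genes, by role, in the diet effect (left), the chemotherapy effect (middle) and chemotherapy with fish oil (right), with 95% confidence intervals. The grey band marks changes under 1.5-fold, and red marks the genes with an unadjusted p under 0.05: Mlycd and Ppard on the left, Cpt1b in the middle, and Mlycd, Hadhb, Angptl4 and Pdk4 on the right.

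Within the groups, Pdk4, Angptl4, Ucp3 and Cpt1a varied together from sample to sample. Correlations were taken over the 19 samples on log2 CPM after removal of the group means, with 100000 two-sided permutations within groups and adjustment over 15 relations. The genes of these relations were chosen with earlier results of these data known, and the adjustment covers only these relations. Pdk4 and Angptl4 correlated with r = 0.863 (permutation p = 0.00021, adjusted p = 0.0015) and Spearman's rho = 0.851 (permutation p = 1e-04, adjusted p = 0.00075). With CHEMO FO replicates 17 and 18, the samples farthest from the median of Pdk4, left out, r was 0.683. Within CHEMO STD alone it was 0.648 and within CHEMO FO 0.901.

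Pdk4 and Cpt1a gave r = 0.781 (permutation p = 0.00017, adjusted p = 0.0015), rho = 0.888 (permutation p = 6e-05, adjusted p = 0.00075) and r = 0.741 without the same 2 samples. For Pdk4 and Ucp3 the values were r = 0.713 (permutation p = 0.00573, adjusted p = 0.0123), rho = 0.744 (permutation p = 0.00209, adjusted p = 0.00522) and r = 0.793 without them. These relations thus remained without the 2 extreme samples, though TUMOUR STD replicate 11 was kept in those fits. In replicate 18 Ucp3 was below the mean of its group. Angptl4 with Ucp3 (r = 0.803, permutation p = 3e-04, rho = 0.798, permutation p = 0.00028, r = 0.705 without CHEMO FO replicates 15 and 17), Angptl4 with Cpt1a (r = 0.673, permutation p = 0.00323, rho = 0.751, permutation p = 0.00104, r = 0.643 without the same 2) and Ucp3 with Cpt1a (r = 0.675, permutation p = 0.00049, rho = 0.732, permutation p = 0.00064, r = 0.586 without CHEMO FO replicate 17 and TUMOUR STD replicate 11) also passed, with adjusted p of 0.0015, 0.00807 and 0.00184 for r and 0.0014, 0.00312 and 0.0024 for rho. TUMOUR STD replicate 11 was the lowest of its group in Pdk4 (24.5 CPM), Angptl4 (1.95 CPM), Ucp3 (31.0 CPM) and Cpt1a (5.85 CPM) together. Within CHEMO STD alone, r was 0.487 for Pdk4 with Cpt1a, 0.665 for Pdk4 with Ucp3 and 0.955 for Angptl4 with Ucp3. There it was 0.333 for Angptl4 with Cpt1a and 0.458 for Ucp3 with Cpt1a. Within CHEMO FO alone, r for the same relations was 0.683 or more.

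**Figure D4:**
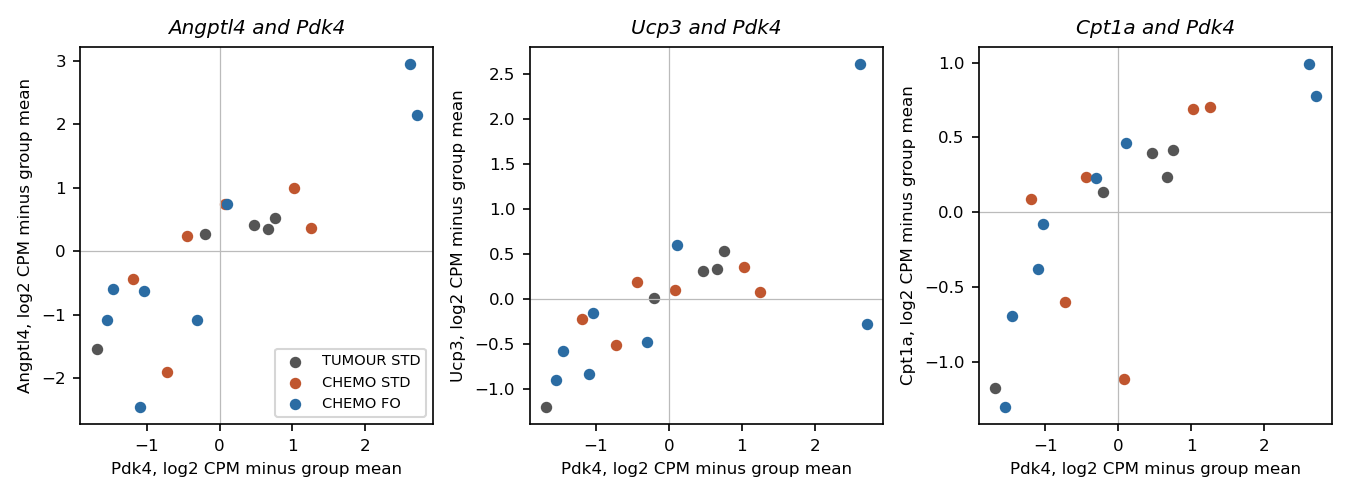
Angptl4, Ucp3 and Cpt1a against Pdk4 in the 19 samples, each as log2 CPM minus the mean of its group, coloured by group. The points rise from the left, where TUMOUR STD replicate 11 has the lowest Pdk4, to CHEMO FO replicates 17 and 18 at the right (r = 0.863, 0.713 and 0.781). In the Angptl4 and Cpt1a panels other samples lie lower than TUMOUR STD replicate 11, and in the Ucp3 panel CHEMO FO replicate 18 lies below zero.

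None of the 4 relations of Plin2 passed. Its r was 0.424 with Pdk4 (permutation p = 0.185, adjusted p = 0.315, rho = 0.140, permutation p = 0.569, adjusted p = 0.657) and turned to -0.385 without replicates 17 and 18. With Angptl4, Ucp3 and Cpt1a, r was 0.356, -0.047 and 0.097 (permutation p = 0.286, 0.855 and 0.747) and rho 0.161, -0.077 and -0.037 (permutation p = 0.524, 0.747 and 0.886). Of the oxidation genes set against Myh7, the myosin heavy chain of slow fibres, Cpt1b correlated with r = 0.757 (permutation p = 0.00214, adjusted p = 0.00642), rho = 0.644 (permutation p = 0.0111, adjusted p = 0.0238) and r = 0.623 without TUMOUR STD replicate 11 and CHEMO FO replicate 15. Its r was 0.778 within CHEMO FO and 0.199 within CHEMO STD. For Fabp3, Lpl, Acadl and Hadha, r with Myh7 lay between 0.161 and 0.363 (permutation p of 0.189 or more) and rho between 0.204 and 0.396 (permutation p of 0.126 or more). Within CHEMO STD, r with Myh7 was 0.898 for Acadl and 0.708 for Fabp3, and within CHEMO FO 0.119 and 0.344. The 10 slow fibre markers summed to 8548 to 16515 CPM in TUMOUR STD, 6983 to 11466 CPM in CHEMO STD and 5805 to 16479 CPM in CHEMO FO, beside the lower Cpt1b of CHEMO STD, and their part in that difference was not tested.

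Around these genes, 114 further genes of lipid metabolism in 9 lists were read in the same fits, of which 111 had a row and 94 were tested. In the diet effect none of the 94 was called by edgeR and 2 were below an unadjusted p of 0.05 (1.66% and 4.51% over all genes), with 1 called and 4 below 0.05 by DESeq2, and 51 were positive and 43 negative (median log2 FC 0.02). The lowest p among those higher belonged to Plin4, a lipid droplet coat protein, at 225 ± 35.6 CPM (SD, n = 8) with fish oil and 180 ± 16.01 CPM (SD, n = 6) without (log2 FC 0.32, SE 0.13). It was followed by the CoA hydrolases Nudt7 (0.47, SE 0.23) and Nudt19 (0.28, SE 0.15). Lower were Scp2, the sterol carrier and peroxisomal thiolase (-0.30, SE 0.12), the acyl-CoA synthetase Acsl3 (-0.32, SE 0.16) and the peroxisomal transporter Abcd2 (-0.66, SE 0.34). Abcd2 was at 2.84 CPM in CHEMO FO replicate 18 and had a log2 FC of -0.46 without it. Nudt7 was at 27.3 CPM in CHEMO FO replicate 17 and had a log2 FC of 0.32 without it. The 16 tested genes of peroxisomal oxidation had a median log2 FC of -0.08 with 9 negative, and the 15 of lipolysis and lipid droplets a median of 0.10 with 10 positive.

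In the chemotherapy effect, again none of the 94 was called by edgeR and 2 were below an unadjusted p of 0.05 (2.38% and 6.5% over all genes), and DESeq2 called 2. Acsl3 averaged 31.3 ± 5.78 CPM (SD, n = 5) without chemotherapy and 47.2 ± 9.73 CPM (SD, n = 6) with it, a log2 FC of 0.58 (SE 0.18, adjusted p = 0.719) just under the 1.5-fold threshold, and was called by DESeq2 at 0.59. The branched-chain acyl-CoA dehydrogenase Acadsb (0.45, SE 0.20) and the peroxisomal transporter Abcd3 (0.28) were next, and Dgat1 (-0.36), Slc27a3 (-0.92) and Acot11 (-0.42) had the lowest p among those lower. Without TUMOUR STD replicate 10, Slc27a3 was -0.55 and Abcd3 0.17. The coactivator Ppargc1a averaged 27.6, 28.6 and 24.2 CPM in TUMOUR STD, CHEMO STD and CHEMO FO, and the receptor Pparg stayed at 3.60 CPM or below in each mean. Of 13 tested nuclear receptors and coactivators, none was called in any comparison with all samples in the fit. Nor was any then below an unadjusted p of 0.05 by edgeR or DESeq2. Over all genes, 1.66% were called in the diet effect, 2.38% in the chemotherapy effect and 3.6% in chemotherapy with fish oil. With single libraries left out, the receptor Esrrg was called as lower. In the chemotherapy effect this was without CHEMO STD replicate 5 (log2 FC -0.64). In chemotherapy with fish oil it was without TUMOUR STD replicate 10 (-0.67) and without CHEMO FO replicate 19 (-0.71).

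In chemotherapy with fish oil, 1 of the 94 (3.6% over all genes), Pnpla3, a lipid droplet hydrolase, was called as higher (log2 FC 1.66, SE 0.73, adjusted p = 0.524), and DESeq2 called 0 of them and placed 3 below 0.05. Its 5 TUMOUR STD values lay between 0.351 and 2.38 CPM, and 7 of the 8 CHEMO FO values between 0.366 and 2.76 CPM, while replicate 20 reached 17.8 CPM. Without replicate 20 the log2 FC was 0.23, and DESeq2, which replaced that count, gave 0.31. The thioesterases Acot9 (0.51, SE 0.24) and Acot11 (-0.49, SE 0.23) had opposite signs, but Acot9 was at 73.7 CPM in CHEMO FO replicate 18 and had a log2 FC of 0.22 without it. Plin4 (0.27), Slc27a3 (-0.83, or -0.47 without TUMOUR STD replicate 10) and the receptor Esrrg (-0.55) did not reach an unadjusted p of 0.05 by edgeR with all samples in the fit.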

How the data were processed

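Per the labels and the study's methods, rRNA-depleted, stranded total RNA libraries of rat gastrocnemius were sequenced. The authors trimmed adapters with Trim Galore 0.4.1, checked reads with FastQC 0.11.4, aligned them to the rat genome (Rnor 6) with TopHat2 2.0.10 and Bowtie2, after base calling with CASAVA 1.9, and went on in Partek Flow, with Ensembl gene models. The deposited values are unnormalised counts per gene, as whole numbers. How the counting treated strand, and reads matching more than 1 gene, is not given in the sources used here. Values of near-identical copies, such as Acot1 and Acot2, are therefore less certain.

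The analysis used edgeR 4.0.16 under R 4.3.3. The 388 rows without a gene name (0.102% to 0.272% of a library's counts) were left out. After edgeR's filter on low counts (10 per sample, 15 in total) and TMM scaling, a single quasi-likelihood fit covered 19 samples of all 3 conditions, with CHEMO STD replicates 1 and 2 summed. Adjusted p values are Benjamini-Hochberg over all 11716 genes tested. CPM are on TMM sizes of the 20 libraries, with those 2 averaged, and log2 CPM have a prior count of 2. The study counts animals in each group, equal in number to the libraries. The labels do not say that samples are separate animals, so p values measure the spread between these samples.

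The genes and lists were chosen with earlier results of these data known. All 39 genes could be named, with the values of every sample for those called and for Pdk4, Angptl4, Ucp3, Plin2, Cpt1a, Cpt1b, Ppara and Ppard, and of the other lists those called and the 3 with the lowest p in each direction. Of the planned correlations, the 1 with Cd36 was not run, and protein identities between paralogues are not reported here. Alternatives were DESeq2 1.42.0, RLE factors, no filter, replicates 1 and 2 as 2 libraries, only the 2 conditions compared, each library left out, and, chosen after seeing the data, CHEMO FO replicates 17 and 18 or CHEMO STD replicates 1 and 2 both left out. Python 3.11.15 with matplotlib 3.10.9 drew the figures.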

Additional observations from a re-analysis of the deposited data

Results flagged for a closer look

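In each group, the highest and the lowest sample of each tested gene were compared with the rest by Dixon's test at its 95% critical value. Of 105 sets of a gene in a group, 9 held an outlying sample, where chance alone flags about 1 in 20 groups. They fell on 4 samples. TUMOUR STD replicate 11 was low in Angptl4 (1.95 CPM, the others 7.63 to 9.14), Cpt1a (5.85 CPM, the others 15.0 to 18.3) and Ppara (6.34 CPM, the others 10.6 to 11.8). TUMOUR STD replicate 8 was high in Fabp3 (588 CPM, the others 234 to 276) and Acot2 (27.4 CPM, the others 18.02 to 19.99). CHEMO FO replicate 17 was high in Ucp3 (627 CPM, the others 54.8 to 156) and Mlycd (129 CPM, the others 51.2 to 81.4). CHEMO FO replicate 18 was high in Plin2 (95.8 CPM, the others 25.5 to 36.5) and low in Acsl1 (198 CPM, the others 377 to 509). The high Pdk4 of CHEMO FO replicates 17 and 18 was not among these, since each is the near neighbour of the other.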

How the results depend on the processing

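The numbers of pathway genes called were small under every setting. In the diet effect, 0 became 1 without a filter on low counts (Acot1, with at most 2 counts in any library) and 1 without CHEMO STD replicates 1 and 2 (Ppard), and ranged from 0 to 1 with each library left out. In the chemotherapy effect it was 0 throughout. In chemotherapy with fish oil, 2 became 3 without a filter (with Ucp3), 1 with only the 2 conditions in the fit and 0 without CHEMO FO replicates 17 and 18, and ranged from 1 to 3 with each library left out. The other lipid genes called were, in the diet effect, 0, but 1 by DESeq2, 3 without a filter, 2 without CHEMO FO replicates 17 and 18 and 1 without CHEMO STD replicates 1 and 2 (leave-one-out 0 to 1). In the chemotherapy effect they were 0, but 2 by DESeq2, 1 with RLE factors, 1 without a filter and 2 without CHEMO STD replicates 1 and 2 (leave-one-out 0 to 2), and in chemotherapy with fish oil 1, but 0 by DESeq2 and 4 without a filter (leave-one-out 0 to 2). Over all genes, the calls numbered 195, 279 and 422 in the 3 comparisons, or 1.66%, 2.38% and 3.6% of those tested. Without a filter they numbered 722, 971 and 1116, of a larger number tested that is not given here. Shares over all genes under the other settings are not given here either, so the pathway counts under them have no background beside them. The chemotherapy effect had 603 without CHEMO STD replicates 1 and 2, and with each library left out between 161 (TUMOUR STD replicate 10) and 530 (TUMOUR STD replicate 8). The range in chemotherapy with fish oil was 273 (CHEMO FO replicate 18 left out) to 584 (TUMOUR STD replicate 11). The causes of these shifts were not tested.

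Some log2 FC turned their sign. In the diet effect, Pdk4 became -0.76, Angptl4 -0.75, Ucp3 -0.27 and Plin2 -0.18 without CHEMO FO replicates 17 and 18, and Ucp3 -0.25 by DESeq2. Cpt1a became 0.0103 by DESeq2, 0.00178 without a filter and 0.15 without CHEMO STD replicates 1 and 2. In the chemotherapy effect, Plin2 became 0.00764 by DESeq2, 0.00451 with RLE factors and 0.0795 without CHEMO STD replicates 1 and 2, and Mlycd 0.00244 with replicates 1 and 2 kept apart. In chemotherapy with fish oil, Angptl4 became -0.12, Plin2 -0.19 and Ppara 0.18 without CHEMO FO replicates 17 and 18. With each library left out, the ranges that crossed zero were, in the diet effect, -0.17 to 0.14 for Cpt1a, -0.14 to 0.26 for Plin2 and -0.26 to 0.73 for Ucp3, in the chemotherapy effect -0.12 to 0.0296 for Mlycd and -0.0513 to 0.0502 for Plin2, and in chemotherapy with fish oil -0.14 to 0.25 for Plin2, -0.15 to 0.12 for Ppara and -0.0112 to 0.23 for Ppard. Under each setting the median log2 FC of the pathway moved by less than 0.167, the SD between samples of its median deviation. The main medians (0.12, -0.04 and 0.06) were themselves smaller in size than that SD, so this says little about their stability. The sign of the median changed in the chemotherapy effect without TUMOUR STD replicate 8 (0.05) and in chemotherapy with fish oil without CHEMO FO replicate 19 (-0.001). No paired analysis was made, since the paper describes rats assigned at random to the groups and gives no pairing. With 5, 6 and 8 samples, the intervals of Pdk4, Angptl4 and Ucp3 were too wide to detect a 1.5-fold change, and the counts of Echs1 and Acot1 allow no comparison.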

Other observations

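Summed over the 37 genes with a row, the pathway took 4779 to 6607 CPM of the counts in TUMOUR STD, 4806 to 5832 CPM in CHEMO STD and 5038 to 8495 CPM in CHEMO FO. CHEMO FO replicates 17 (8495 CPM) and 19 (6920 CPM) were the highest of their group, and replicate 18, in spite of its Pdk4, summed to 5345 CPM. The 6 measured uptake and activation genes summed to 643 CPM in CHEMO FO replicate 18, against 1058 CPM or more in every other sample, and the 9 beta-oxidation genes to 2984 CPM in replicate 17 and 2853 CPM in replicate 19, the highest of all samples. Keratinocyte markers summed to 531 CPM in TUMOUR STD replicate 10 and 113 CPM in CHEMO FO replicate 16, and to at most 8.2 CPM in the others, and no pathway gene was outlying in either of these samples. The 8 Schwann cell markers summed to 459 CPM in TUMOUR STD replicate 10, 451 CPM in CHEMO STD replicates 1 and 2, without which Ppard was called in the diet effect, and 280 CPM in CHEMO STD replicate 7, against 84.3 to 154 CPM in the others, and their part in that call was not tested. The 8 adipocyte markers summed to 113 to 271 CPM in TUMOUR STD, 134 to 612 CPM in CHEMO STD and 108 to 471 CPM in CHEMO FO.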
